A study of Homo sapiens with 18 samples.

Results

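The 8 mRNAs described here were chosen by their rise in control immunoprecipitates over input. These were DYNC2H1 (ENSG00000187240), TULP3 (ENSG00000078246), SYNE2 (ENSG00000054654), MYCBP2 (ENSG00000005810), USP9X (ENSG00000124486), PRKDC (ENSG00000253729), VPS13C (ENSG00000129003) and MDN1 (ENSG00000112159). All were among the largest rises in RNA recovered on anti-Flag beads over its own input when no Flag-tagged RNA-binding protein was expressed. They are 8 of the 58676 Ensembl gene IDs in the deposited count table, of which 35033 had at least 1 count. All 8 passed the filter on low counts, which left 17678 IDs over 18 libraries and 16616 over the 9 inputs. In all groups each member had at least 128 counts per library.

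RNA immunoprecipitation followed by sequencing (RIP-seq) compares the RNA that comes down with a tagged protein with the RNA of the starting lysate, called the input. Beads and antibody also hold some RNA when the tagged protein is absent, and a precipitation from cells that carry only the tag vector measures that background. SBP2 is the protein that binds the SECIS element, a hairpin in selenoprotein mRNAs, and takes part in decoding UGA as selenocysteine. None of the 8 mRNAs encodes a selenoprotein. Their products work in cilia, at the nuclear envelope, in the ubiquitin system, in DNA repair, in lipid transfer and in ribosome assembly.

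Cells labelled HEK293T (HEK293 in the culture notes), derived from human embryonic kidney and easy to transfect, were transiently transfected in 3 ways, and all lysates were made 48 h after transfection. SBP2(Se) cells carried Flag-SBP2 and received 100 nM sodium selenite 4 h after transfection. SBP2 cells carried Flag-SBP2 without added selenite, and Control cells carried the Flag plasmid. No selenite is recorded for Control, so in a difference of SBP2(Se) from Control Flag-SBP2 and selenite cannot be told apart. Each treatment gave 3 RIP and 3 input libraries, so there were 6 groups and 18 libraries, called biological replicates by the study. The labels do not say whether replicates were transfected separately, so p-values measure the spread between these lysates. SBP2 was overexpressed, and no step that removes the cells' own SBP2 is described. RIP took 5 h of incubation with anti-Flag magnetic beads and washes in 300 and 500 mM KCl. The libraries are labelled as polyA RNA.

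With M for 1000000, RIP libraries held on average 23.2 M counts with SBP2(Se), 26.8 M with SBP2 and 27.5 M in Control, while the 9 inputs held 15.2 M to 22.2 M. Levels are given as CPM (counts per 1000000 counts of a library, scaled by TMM factors), and ratios as differences of log2 CPM. CPM is a share of a library. A smaller share of an mRNA on the beads therefore cannot be told apart from a larger amount of other RNA there, nor a change in every cell from a change in some cells. The 8 mRNAs together took 0.165% ± 0.00854 of the counts in SBP2(Se) RIP, 0.149% ± 0.00326 in SBP2 RIP and 0.418% ± 0.0229 in Control RIP, against 0.0562% ± 0.00735, 0.0574% ± 0.00217 and 0.0570% ± 0.00645 in the inputs of the same treatments (SD, n = 3 each).

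The contrast that chose the set, Control RIP against Control input, is given as a description without a test. The 8 log2 changes lay between 2.55 and 2.89, with a median of 2.71, against a median of -0.13 over all 17678 IDs. DYNC2H1 was first among the 13205 IDs whose log2 CPM averaged at least 1, and TULP3, SYNE2 and MYCBP2 followed in that order. USP9X, PRKDC, VPS13C and MDN1 held ranks 7 to 10, and 2 other IDs stood between them and MYCBP2. At the lower edge MDN1 was at 2.55 and the next ID outside the set at 2.54, so the set ends where values were nearly continuous. A further 12 IDs below that abundance limit had a larger change than MDN1. Control RIP and Control input libraries did not overlap for any of the 8 mRNAs, as was the case for 32.1% of all IDs in this direction.

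Each of the 8 mRNAs also rose in RIP over input with Flag-SBP2, in libraries that the choice of the set did not use. The log2 changes were 1.27 to 1.78 with SBP2(Se), with a median of 1.53, and 1.12 to 1.71 with SBP2, with a median of 1.29. Over all IDs the medians were -0.0046 and -0.016. In edgeR's quasi-likelihood test with Benjamini-Hochberg adjustment over all 17678 IDs, 8 of 8 were higher with SBP2(Se), where 30.7% of all IDs were called higher. With SBP2, 8 of 8 were called higher against 30.3% of all IDs. The largest adjusted p among the 8 was 1.04e-09 with SBP2(Se) and 2.16e-07 with SBP2, both for VPS13C. RIP and input libraries did not overlap for any of the 8 in either treatment, as for 32.4% of all IDs with SBP2(Se) and 33.9% with SBP2.

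**Figure D1:**
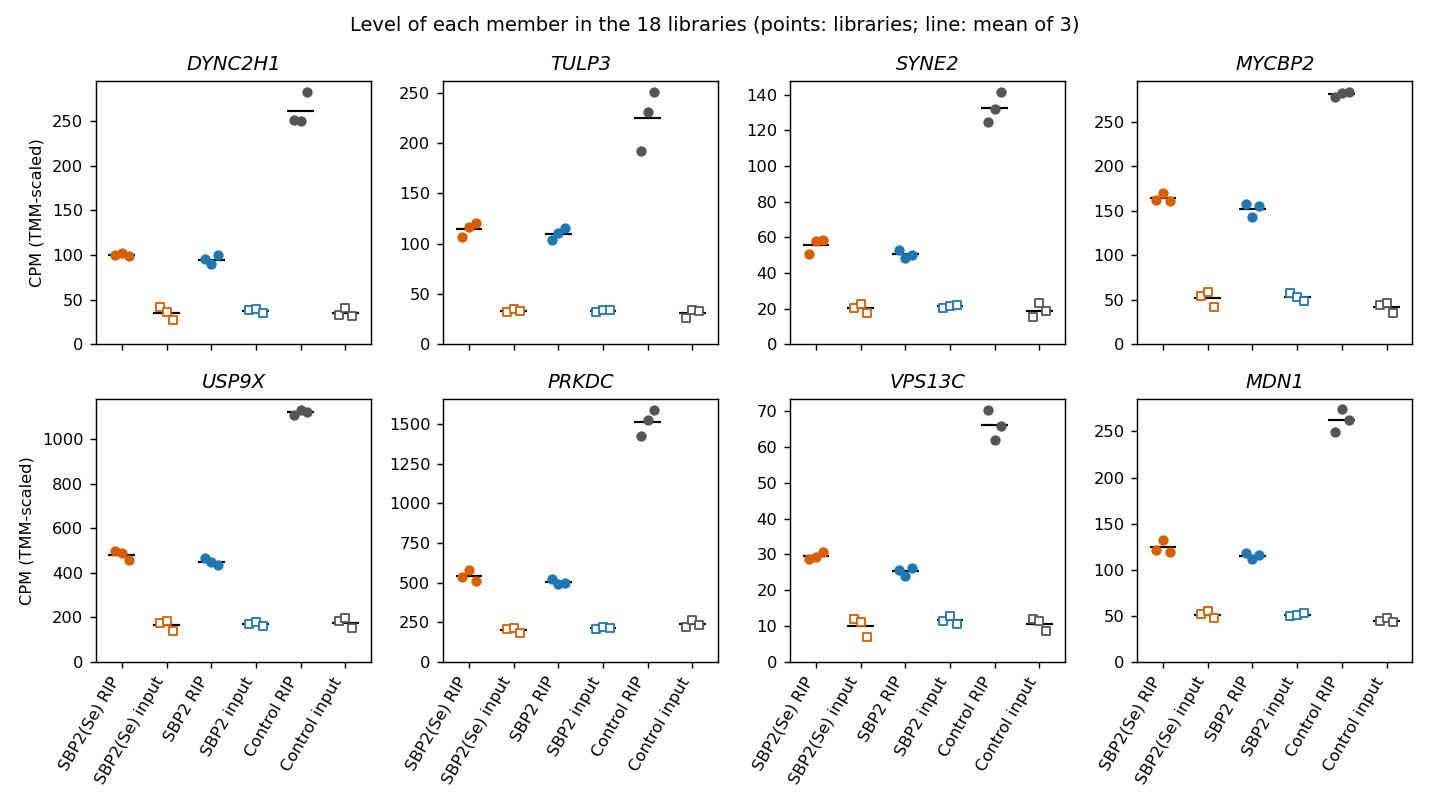
CPM (TMM-scaled, linear axis from 0) of each of the 8 mRNAs in the 18 libraries; filled circles are RIP libraries, open squares inputs, and the horizontal line is the mean of 3. For every member the 3 Control RIP libraries lie highest, the SBP2(Se) and SBP2 RIP libraries lie between them and the inputs, and the 9 inputs lie lowest.

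DYNC2H1 and TULP3 encode proteins of ciliary transport. DYNC2H1, the heavy chain of the dynein motor that carries cargo back from the ciliary tip, had 99.6, 103 and 99.0 CPM in SBP2(Se) RIP against 41.4, 36.0 and 26.8 CPM in SBP2(Se) input. With SBP2 it had 95.6, 89.5 and 99.8 CPM in RIP against 38.5, 39.6 and 35.3 CPM in input. In Control it had 252, 250.3 and 282 CPM in RIP against 32.9, 40.8 and 31.9 CPM in input. The inputs of the 3 treatments overlapped, and the Control RIP libraries stood clear of all others. DYNC2H1 rose 2.89-fold with SBP2(Se) (log2 1.53, SE 0.116, edgeR adjusted p = 2.38e-11) and 2.51-fold with SBP2 (log2 1.33, SE 0.115, edgeR adjusted p = 2.64e-10), and was 7.42-fold higher in Control RIP than in Control input.

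TULP3, a tubby-like protein that helps to bring membrane receptors into the cilium, had 106, 116 and 120.4 CPM in SBP2(Se) RIP against 32.1, 34.8 and 33.4 CPM in SBP2(Se) input. With SBP2 it had 103, 110.2 and 116 CPM in RIP against 32.5, 34.0 and 34.1 CPM in input. In Control it had 192, 231 and 251 CPM in RIP against 26.2, 34.2 and 33.3 CPM in input. TULP3 had the largest rise of the 8 in both SBP2 treatments, and its inputs with Flag-SBP2 lay close together. It rose 3.43-fold with SBP2(Se) (log2 1.78, SE 0.103, edgeR adjusted p = 1.8e-13) and 3.27-fold with SBP2 (log2 1.71, SE 0.103, edgeR adjusted p = 3.24e-13). In Control the ratio was 7.16-fold.

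SYNE2 encodes nesprin-2, a giant protein of the outer nuclear membrane that ties the nucleus to the cytoskeleton. It averaged 55.9 ± 4.34 CPM in SBP2(Se) RIP and 20.2 ± 2.60 CPM in SBP2(Se) input, 50.5 ± 2.17 CPM in SBP2 RIP and 21.5 ± 0.839 CPM in SBP2 input, and 133 ± 8.45 CPM in Control RIP and 18.9 ± 3.90 CPM in Control input (SD, n = 3 each). Its rises were 2.78-fold with SBP2(Se) (edgeR adjusted p = 5.07e-11) and 2.35-fold with SBP2 (edgeR adjusted p = 1.12e-09). The ratio in Control was 6.96-fold.

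MYCBP2 and USP9X act in opposite directions in the ubiquitin system, one attaching ubiquitin and the other removing it. MYCBP2, a very large E3 ubiquitin ligase known for its part in axon development, averaged 165 ± 5.11 CPM in SBP2(Se) RIP and 51.7 ± 9.01 CPM in its input, 153 ± 7.73 CPM in SBP2 RIP and 53.6 ± 4.53 CPM in its input, and 281 ± 2.73 CPM in Control RIP and 42.1 ± 6.49 CPM in its input (SD, n = 3 each). It rose 3.19-fold with SBP2(Se) (edgeR adjusted p = 2.04e-12) and 2.85-fold with SBP2 (edgeR adjusted p = 1.13e-11), next to TULP3 in both treatments, and was 6.70-fold higher in Control RIP than in Control input. USP9X, a deubiquitinase, had 499, 491 and 456 CPM in SBP2(Se) RIP against 176, 185 and 141 CPM in input, and 469, 449 and 435 CPM in SBP2 RIP against 173, 178 and 162 CPM in input. In Control it had 1108.5, 1134 and 1124 CPM in RIP, which differed by little, against 182, 197 and 151 CPM in input. USP9X rose 2.88-fold with SBP2(Se) (edgeR adjusted p = 1.13e-12) and 2.64-fold with SBP2 (edgeR adjusted p = 4.87e-12), and its ratio in Control was 6.35-fold.

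PRKDC, the catalytic subunit of the DNA-dependent protein kinase that acts in the joining of broken DNA ends, carried the most counts of the 8, up to 52289 in 1 library. It had 534, 580.5 and 511 CPM in SBP2(Se) RIP against 207, 214 and 183 CPM in input, and 522, 494 and 497 CPM in SBP2 RIP against 208, 219 and 211 CPM in input. In Control it had 1422, 1523 and 1588 CPM in RIP against 219, 266 and 232 CPM in input. The 6 RIP libraries with Flag-SBP2 all lay below the 3 of Control and above all 9 inputs. PRKDC rose 2.69-fold with SBP2(Se) (log2 1.43, SE 0.0845, edgeR adjusted p = 2.72e-13) and 2.37-fold with SBP2 (log2 1.25, SE 0.0841, edgeR adjusted p = 2.81e-12), against 6.32-fold in Control.

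VPS13C, a bridge-like protein that moves lipids between membranes at contact sites, had the fewest counts of the 8 and scattered most between the SBP2(Se) inputs. It had 28.6, 29.3 and 30.6 CPM in SBP2(Se) RIP against 12.02, 11.2 and 6.90 CPM in input, and 25.6, 24.0 and 26.3 CPM in SBP2 RIP against 11.5, 12.9 and 10.6 CPM in input. In Control it had 70.3, 62.0 and 65.9 CPM in RIP against 11.98, 11.3 and 8.53 CPM in input. Its rises were 2.94-fold with SBP2(Se) (log2 1.56, SE 0.145) and 2.17-fold with SBP2 (log2 1.12, SE 0.143), with the adjusted p given above, and the Control ratio was 6.27-fold. The third SBP2(Se) input was its lowest library, at 128 counts.

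MDN1, or midasin, is an ATPase that strips assembly factors from precursors of the large ribosomal subunit. It had 121, 133 and 119 CPM in SBP2(Se) RIP against 51.7, 55.4 and 47.3 CPM in input, and 118, 112 and 116 CPM in SBP2 RIP against 49.9, 51.1 and 53.2 CPM in input. In Control it had 249.9, 274 and 262 CPM in RIP against 44.0, 47.6 and 42.9 CPM in input. Its replicates lay close together, and it had the smallest rise of the 8 with SBP2(Se), 2.42-fold (log2 1.27, SE 0.0800, edgeR adjusted p = 8.09e-13). With SBP2 it rose 2.24-fold (log2 1.17, SE 0.0799, edgeR adjusted p = 3.71e-12), and the Control ratio was 5.85-fold.

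With Flag-SBP2 the 8 mRNAs were above most IDs but no longer at the top of the list. By log2 change, 1.06% to 4.14% of the 17678 IDs ranked above the individual members with SBP2(Se), and 1.63% to 6.65% with SBP2. TULP3 stood highest, at rank 188 with SBP2(Se) and 290 with SBP2. The lowest member was MDN1 with SBP2(Se), at rank 733, and VPS13C with SBP2, at rank 1177. In Control, where the ranks follow from the choice of the set, they ran from 8 to 22. The spread among members was 0.50 on the log2 scale with SBP2(Se), 0.59 with SBP2 and 0.34 in Control (largest minus smallest change). The Control spread likewise follows from the choice of the set, so it cannot be compared with those with Flag-SBP2.

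**Figure D2:**
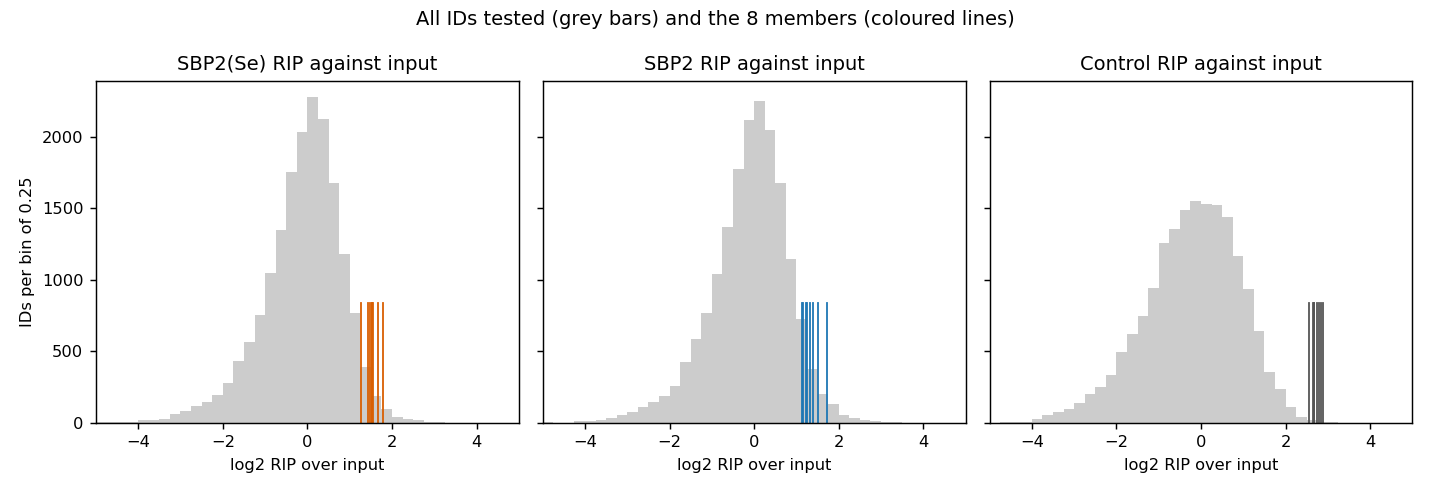
Histograms of the log2 RIP-over-input change of all 17678 IDs tested (grey bars, bins of 0.25) in SBP2(Se), SBP2 and Control; coloured vertical lines mark the 8 mRNAs. The members lie at 1.27 to 1.78 with SBP2(Se) and 1.12 to 1.71 with SBP2, in the upper tail, and at 2.55 to 2.89 in Control, the contrast by which they were chosen.

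The 100 other IDs with the largest Control changes above the same abundance limit, likewise chosen on Control, had a median log2 change of 1.23 with SBP2(Se), 1.12 with SBP2 and 2.20 in Control. All 100 were called higher in RIP with SBP2(Se) and with SBP2. The rise with Flag-SBP2 was thus not particular to the 8 members.

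The RIP-to-input ratio of the 8 mRNAs, a ratio of library shares, was lower with Flag-SBP2, with or without selenite, than in Control. These differences hold the Control libraries on which the set was chosen, so they are given without a test. The log2 RIP-to-input ratio differed by -1.06 (TULP3) to -1.36 (DYNC2H1) with SBP2(Se), with a median of -1.19, and by -1.13 (TULP3) to -1.57 (SYNE2) with SBP2, with a median of -1.40. Over all IDs the median differences were 0.026 and 0.022. For the 100 other IDs with the largest Control changes, likewise chosen on Control, the medians were -1.01 and -1.15. Of these 100, 0 were above 0 in either treatment, so they shared the lower ratio. Choice by a large Control change itself favours differences below 0, in the 8 and in the 100 alike. The log2 change with SBP2(Se) was 50.0% (MDN1) to 62.5% (TULP3) of that in Control, and with SBP2 it was 42.3% (VPS13C) to 60.3% (TULP3). Both comparisons share the 3 Control lysates.

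In single lysates, the mean log2 ratio over the 8 mRNAs was 1.41, 1.45 and 1.76 with SBP2(Se), 1.37, 1.25 and 1.40 with SBP2, and 2.73, 2.56 and 2.90 in Control. The lowest Control lysate therefore stood above the highest lysate with Flag-SBP2, which follows in part from the choice of the set on Control. The ratio was highest in the third lysate for 8 of 8 members with SBP2(Se) and 7 of 8 in Control, and for 4 of 8 with SBP2. The third input was the lowest of its 3 for 7 of 8 members with SBP2(Se) and 5 of 8 in Control. The third Control RIP was the highest of its 3 for 5 of 8. Such counts were not made over all IDs. The members share these libraries and had similar profiles, so the counts are not separate observations. Without the third Control lysate the members' median log2 change in Control was 2.64, and the median differences from Control were -1.12 with SBP2(Se) and -1.37 with SBP2, again without a test.

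**Figure D3:**
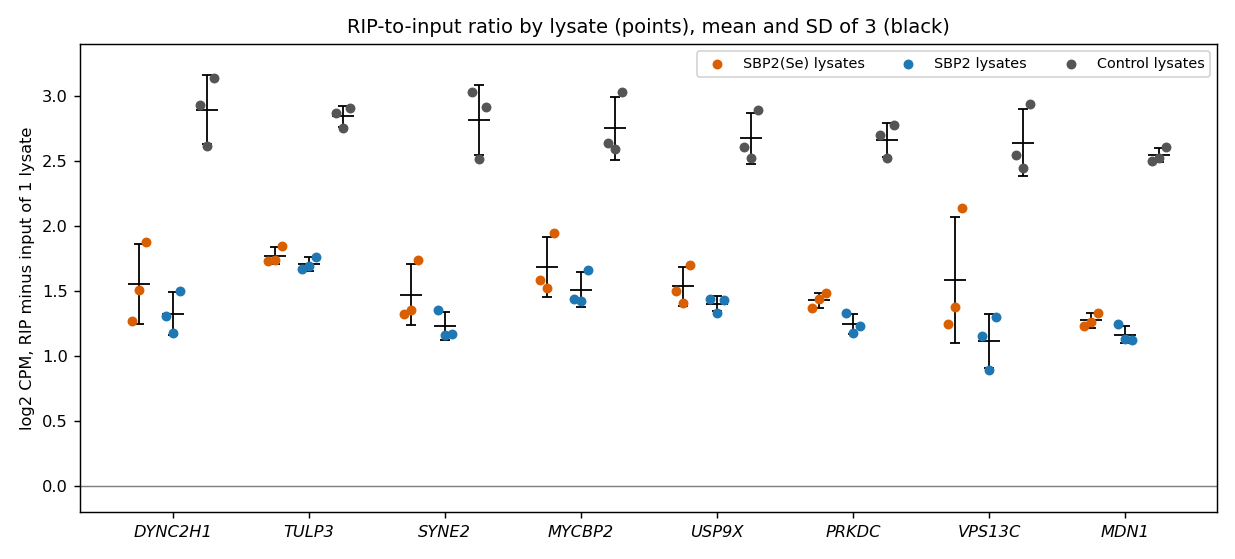
log2 RIP-to-input ratio of the 8 mRNAs in each of the 9 lysates (coloured points), with the mean and SD of 3 in black. Ratios lie between 0.89 and 2.14 with Flag-SBP2, with or without selenite, and between 2.44 and 3.14 in Control.

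Between RIP libraries, without inputs, the 8 mRNAs were lower than in Control RIP, with log2 differences of -0.77 (MYCBP2) to -1.48 (PRKDC) with SBP2(Se) and -0.88 (MYCBP2) to -1.58 (PRKDC) with SBP2. In both treatments no RIP library with Flag-SBP2 reached the lowest Control RIP library for any of the 8. The set was chosen on the Control libraries, so every comparison with Control RIP here follows in part from that choice. No test was made of these comparisons. Control RIP lay above SBP2(Se) RIP without overlap for 28.3% of all IDs, and above SBP2 RIP for 31.5%. Ordered by mean CPM, the 3 RIP groups came in the same order for each member, with SBP2(Se) RIP below Control RIP and SBP2 RIP below SBP2(Se) RIP. The libraries of SBP2(Se) RIP and SBP2 RIP overlapped for DYNC2H1, TULP3, SYNE2, USP9X and PRKDC, and did not for MYCBP2, VPS13C and MDN1. These are 3 of 8, where SBP2(Se) RIP lay above SBP2 RIP without overlap for 7.38% of all IDs, and no test was made of this share.

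No member passed edgeR's test for a change of the RIP-to-input ratio with selenite. The difference, SBP2(Se) minus SBP2, was above 0 for all 8 mRNAs and for 49.3% of all IDs. It ran from 0.065 (TULP3) to 0.43 (VPS13C) on the log2 scale, with a median of 0.17 against -0.0039 over all IDs. The 8 signs come from the same libraries and are not separate observations. None of the 8 passed, with adjusted p from 0.989 to 0.995, and 0% of all 17678 IDs were called. At an unadjusted p under 0.05, edgeR gave 1 of 8, VPS13C, and 800 of all 17678 IDs. DESeq2 gave 785 IDs and limma voom 836 at that limit, and each of these other tools also gave 1 of the 8. After adjustment DESeq2 and limma voom also called 0 IDs. The 95% interval reached from 0.016 to 0.85 for VPS13C, from -0.13 to 0.54 for DYNC2H1, from -0.23 to 0.36 for TULP3 and from -0.12 to 0.34 for MDN1. Without the third SBP2(Se) lysate, whose inputs were low, the median difference was 0.066 and the range 0.025 to 0.19. Among the 100 other IDs with large Control changes, 78 were above 0, with a median of 0.12.

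**Figure D4:**
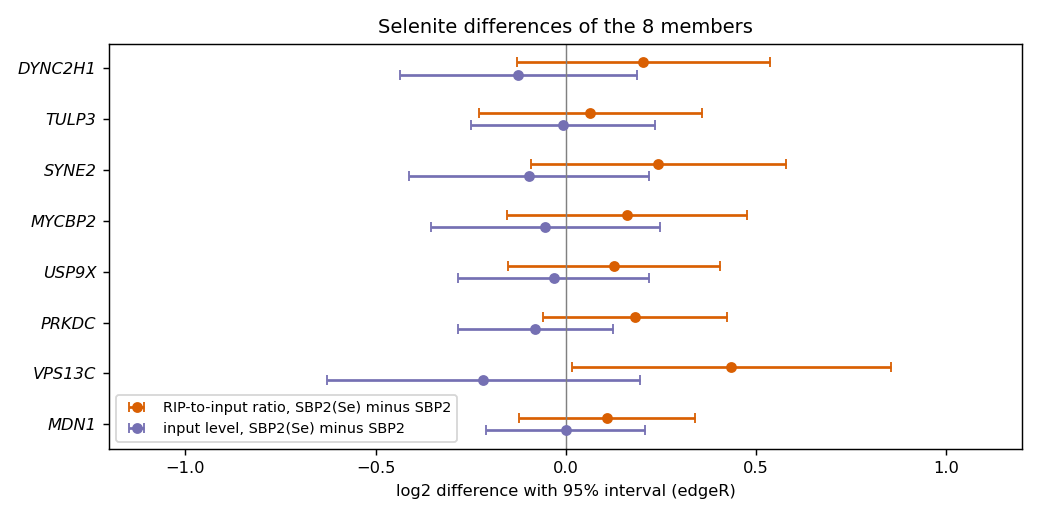
log2 differences between SBP2(Se) and SBP2 for the 8 mRNAs, as edgeR estimates with 95% intervals, for the RIP-to-input ratio (orange) and the input level (purple). The ratio differences lie at 0.065 to 0.43 and the input differences at -0.22 to -0.00063; all but 1 interval, that of the VPS13C ratio, include 0.

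No member passed the test for a change of its lysate level with selenite. SBP2(Se) input minus SBP2 input was below 0 for all 8, from -0.00063 (MDN1) to -0.22 (VPS13C) on the log2 scale, with a median of -0.067. Over all IDs the median was 0.0010, and 50.3% were above 0. The same inputs enter the ratio difference with the opposite sign, so its direction is not a separate observation. None of the 8 passed edgeR's test over 16616 IDs (adjusted p of 0.9997 for each). None had an unadjusted p under 0.05, and none was called by DESeq2 or limma voom. Of all IDs 1 was called, or 0.00602%, and 251 had an unadjusted p under 0.05. With the replicate number as a block the test called 5 IDs higher and 32 lower, none of them among the 8. Without the third SBP2(Se) input the median was 0.013, above 0. The intervals still allow changes from -0.63 to 0.19 for VPS13C and from -0.21 to 0.21 for MDN1.

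Against Control input, which took part in the choice of the set, values are given without a test. SBP2(Se) input differed by -0.24 (PRKDC) to 0.30 (MYCBP2) and SBP2 input by -0.16 (PRKDC) to 0.36 (MYCBP2) on the log2 scale. The differences in the RIP-to-input ratio given above, -1.57 to -1.06, were larger in size for every member. SBP2 inputs lay above Control inputs without overlap for MYCBP2 and MDN1, and SBP2(Se) inputs lay below Control inputs without overlap for PRKDC. Over all IDs, SBP2 inputs lay above Control inputs in this way for 7.86%, and SBP2(Se) inputs below Control inputs for 8.39%. These shares stand beside 2 of 8 and 1 of 8 members, and no test was made of them. All other pairs of input groups overlapped. MDN1 input averaged 51.5 ± 4.04 CPM with SBP2(Se), 51.4 ± 1.69 CPM with SBP2 and 44.8 ± 2.44 CPM in Control (SD, n = 3 each).

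The profiles of the 8 mRNAs over the 18 libraries were alike. These libraries include those of Control on which the set was chosen, so the likeness follows in part from that choice. Pearson's r between each member and the mean of the other 7, on centred log2 CPM, ran from 0.9805 (MYCBP2) to 0.997 (USP9X), as a description over libraries that share the large RIP-to-input difference. Among 13197 other IDs, ENSG00000068878 and ENSG00000108424 had the profiles most like the mean of the 8 (r = 0.998 and 0.997 over 18 libraries). ENSG00000068878 averaged 202 ± 1.41 CPM in SBP2(Se) RIP, 191 ± 8.61 CPM in SBP2 RIP and 406 ± 8.61 CPM in Control RIP (SD, n = 3 each), with log2 changes over input of 1.27, 1.14 and 2.34. ENSG00000108424 had log2 changes of 1.49, 1.30 and 2.46 in the same order. The profile was common, since 66 other IDs correlated with it above 0.99 and 252 above 0.98.

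Most members lie in long genes. In the RefSeq annotation of GRCh38.p14, SYNE2 spans 465 kb (chr14:63761596-64226449), DYNC2H1 370.4 kb (chr11:103109426-103479863), MYCBP2 282 kb (chr13:77044657-77327094) and VPS13C 208 kb (chr15:61852389-62060447). PRKDC spans 187 kb (chr8:47773111-47960136), MDN1 177 kb (chr6:89642498-89819794) and USP9X 151 kb (chrX:41085445-41236579). Of 20033 protein-coding genes, with a median span of 24.1 kb, 89.9% to 98.2% were shorter than these 7. TULP3 is the exception to the long members, at 50.2 kb (chr12:2890891-2941138), where 68.9% of coding genes were shorter. These are genomic spans with introns, and the lengths of the mRNAs were not analysed here. A relation of span to recovery was not tested.

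Other annotated genes overlap 7 of the 8 spans, USP9X being free of them. MYCBP2 is overlapped by 1 gene annotated as protein-coding and by MYCBP2-AS1 and MYCBP2-AS2, and MDN1 by MDN1-AS1 and 2 pseudogenes. The DYNC2H1 span holds 6 mitochondrial pseudogene copies. No source used here gives the strand setting of the counting, so reads of a member and of an antisense partner cannot be told apart, and the part of such reads in these counts was not tested.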

How the data were processed

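The authors deposited whole-number counts per Ensembl gene ID for 18 libraries, used as deposited. Trim Galore 0.6.6, STAR 2.7.6a, featureCounts 2.0.1 and the build GRCh38 are named, per the submitters' processing notes; for annotation, strand and multi-mapping the settings were not given in the sources used here. Groups and replicate numbers came from sample titles. Members, their symbols, lists and tests were chosen with earlier results of these data known. The reference gene table paired 0 of 59792 genes with an Ensembl ID, so lists of related genes, SECISBP2 (which encodes SBP2) and other IDs were not analysed here by name; the 8 symbols are those of the set's definition, and all were found in that RefSeq table. No sequences are shown, since those of these mRNAs and proteins were not used here.

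IDs were filtered with filterByExpr (minimum count 10, minimum total 15), scaled by TMM and fitted by group means over 18 libraries, or over 9 inputs for input contrasts, with edgeR 4.0.16 in R 4.3.3 (two-sided quasi-likelihood test, Benjamini-Hochberg threshold 0.05). Standard errors were taken from the F statistic and intervals cover 95%. Lysate ratios used a prior count of 2. The code was tested on simulated counts. Alternatives used DESeq2 1.42.0, limma 3.58.1, other scalings and filters, the compared groups alone, a replicate block and leaving out each lysate.

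An input and its RIP were taken as 1 lysate, as the protocol takes the input from the sample itself. Deviations from group means correlated at -0.13 to 0.39 between them. Same-numbered inputs with and without selenite correlated at 0.31 to 0.48, so the numbers were taken to pair them. Named IDs were the 8 members and the 2 others most correlated with their mean profile.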

Additional observations from a re-analysis of the deposited data

How the results depend on the processing

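All 8 mRNAs remained called higher in RIP with SBP2(Se) and with SBP2 under each of the 12 alternatives run for either comparison, with medians of 1.41 to 1.62 and 1.26 to 1.35 on the log2 scale and adjusted p of at most 1.03e-07 and 4.9e-05. With the replicate block the medians were 1.54 and 1.29. Over all IDs, these alternatives called 4788 to 5806 higher with SBP2(Se) and 4616 to 5688 with SBP2. Between 15027 and 35033 IDs were tested, depending on the filter. Neither selenite comparison called a member under any of 15 alternatives each (smallest adjusted p 0.701 for the ratio and 0.519 for inputs). The ratio difference kept its sign for all 8 (0.025 to 0.61), while input differences ran from -0.36 to 0.079. Leaving out each lysate gave 0.066 to 0.21 as the median ratio difference, lowest without SBP2(Se) replicate 3. The replicate block changed no call of a member. For inputs, all IDs called were 1 in the fit used, 5 and 22 (higher and lower) without a low-count filter, 5 and 32 with the block, 3 with DESeq2 and 2 in a fit over the compared groups.

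The values with no test were all comparisons with Control, and under the alternatives 26 of them moved by more than the replicate SD. Library size alone moved the Control median of all IDs by 0.18 and that of the members from 2.71 to 2.89, and DESeq2 size factors moved it by 0.11; relative to all IDs the members' median was 2.83 with TMM and with DESeq2 size factors. The members' median difference from Control ran from -1.35 to -1.12 with SBP2(Se) and from -1.55 to -1.37 with SBP2. Depth limited VPS13C most, with 128 counts in its lowest library.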
